A study of Mus musculus with 4 samples.

Results

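Heat shock chaperones of the cytosol and mitochondria were compared between sham-operated mouse bladders and bladders obstructed for 14 days. The members were chosen by gene symbol from the annotated probes of the array: Hsp70 and Hsp110 (Hspa, Hsph1), small heat shock proteins (Hspb, Cryab), Hsp90 alpha class, the mitochondrial chaperonin Hspd1 and Hspe1, the cytosolic chaperonin CCT, J-domain proteins (Dnaja, Dnajb, Dnajc), BAG co-chaperones and Hsf1. Of 84 protein-coding mouse genes that match these symbols, 73 had a named probe, out of 15366 named genes on the array (0.475%). The other 11, among them Hsf1, Hsp90ab1, Hspa1b and Hspb6, were not analysed here. The endoplasmic reticulum chaperones Hspa5, Dnajb9, Dnajb11 and Dnajc3 were left out by the rule. Other genes of that compartment or its membrane, among them Dnajc10, Dnajc1, Dnajb12 and Hspa13, match the symbols and were kept.

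All samples were total RNA of whole bladder from male mice on a normal diet, measured on Illumina arrays after biotin labelling. The sham group (2 arrays) was operated without obstruction. In the obstructed group (2 arrays), partial outlet obstruction had forced the bladder to empty against a raised resistance for 14 days. The sources used here give no strain, age or genotype. Whether the arrays held separate mice is not labelled, so p-values reflect only the scatter of these samples, possibly technical. Values are log2 intensities as deposited and differences are obstructed minus sham, with a median level of 5.80 over all probes in each array. Smooth muscle markers (7 of 7 measured) and 5 of 7 urothelial markers lay above that median on average. So did all 9 markers of male accessory glands, but most of them only through the obstructed arrays. Svs2, Svs4, Svs6, Msmb, Pate4 and Defb50 lay below it in both sham arrays, and Svs1 in sham replicate 1. The log2 of the summed intensities of the 9 gland markers was 12.04 and 8.81 for sham against 13.47 and 17.77 in obstructed replicates 1 and 2 respectively. Sbp alone measured 11.91 and 5.89 in sham. Obstructed replicate 2 also correlated least with the other arrays (0.961 to 0.969, against 0.981 to 0.989 among those 3). Markers of Schwann cells and nerve (3 measured) had medians of -0.62 and -1.10 against sham in obstructed replicates 1 and 2. Adipocyte markers (5 measured) had medians of -0.30 and -0.44, and Adipoq alone differed by -4.00. Of both lists 0 were called by limma, and their part in the results was not tested. In whole bladder, fewer cells of a type and less RNA per cell cannot be told apart.

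Heat shock proteins bind unfolded or stretched proteins and keep them from aggregating. Hsp70 takes up clients delivered by J-domain proteins and releases them with the help of Hsp110 and BAG proteins. Hsp90 matures kinases and receptors, CCT folds actin and tubulin, and Hspd1 with Hspe1 folds proteins imported into mitochondria. Small heat shock proteins hold unfolding clients without ATP and are abundant in muscle, where Hspb8, Hspa8 and Bag3 act together in removing filamin damaged by mechanical strain. In heat shock, the factor HSF1 binds arrays of inverted GAA units, the heat shock elements, in the promoters of many of these genes.

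The promoter windows below, from RefSeq (GRCm38.p6, 250 bases before to 50 after each start), show where such units lie in members described in the results. Of the 73 members, 57 had a window. A pair of inverted units (GAANNTTC or TTCNNGAA, each of which reads the same on both strands) was found in 19 of the 57 members, 33.3%, and in 17.0% of all 27025 genes with a window. Runs of 3 units or more, which are made of overlapping pairs, were found in 4 members, 7.02%, and in 0.662% of all genes. These 4 were Hspd1, Hspe1, Hsph1 and Dnajb6. Hspd1 and Hspe1 are neighbours on chromosome 1 with overlapping windows on opposite strands, so they share 1 run. Hspa1a and the small heat shock gene Hspb1 are shown as members with pairs only, and for Dnajb6 and Hsph1, which have several windows, 1 is shown. Capitals mark the pairs and runs.

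Hspe1, chr1:55087898-55088197, plus strand: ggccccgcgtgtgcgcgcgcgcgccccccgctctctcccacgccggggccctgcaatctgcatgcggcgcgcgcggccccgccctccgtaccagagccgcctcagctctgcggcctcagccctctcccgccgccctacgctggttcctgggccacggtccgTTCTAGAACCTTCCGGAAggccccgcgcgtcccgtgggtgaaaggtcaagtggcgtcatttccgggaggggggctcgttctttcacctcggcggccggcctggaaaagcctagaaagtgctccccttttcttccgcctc

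Hsph1, chr5:149636266-149636565, minus strand: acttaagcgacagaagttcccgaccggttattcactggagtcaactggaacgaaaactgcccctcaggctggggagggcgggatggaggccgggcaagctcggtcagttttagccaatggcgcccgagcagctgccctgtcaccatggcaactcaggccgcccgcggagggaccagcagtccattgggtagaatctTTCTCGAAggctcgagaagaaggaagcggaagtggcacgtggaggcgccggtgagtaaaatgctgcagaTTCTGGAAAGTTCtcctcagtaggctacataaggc

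Dnajb6, chr5:29735648-29735947, plus strand: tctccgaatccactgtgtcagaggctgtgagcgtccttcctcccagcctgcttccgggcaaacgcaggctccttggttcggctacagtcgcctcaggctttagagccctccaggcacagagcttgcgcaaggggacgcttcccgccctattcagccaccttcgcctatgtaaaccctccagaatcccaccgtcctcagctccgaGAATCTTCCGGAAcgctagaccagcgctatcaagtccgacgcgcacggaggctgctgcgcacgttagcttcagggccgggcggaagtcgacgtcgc

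Hspa1a, chr17:34972107-34972406, minus strand: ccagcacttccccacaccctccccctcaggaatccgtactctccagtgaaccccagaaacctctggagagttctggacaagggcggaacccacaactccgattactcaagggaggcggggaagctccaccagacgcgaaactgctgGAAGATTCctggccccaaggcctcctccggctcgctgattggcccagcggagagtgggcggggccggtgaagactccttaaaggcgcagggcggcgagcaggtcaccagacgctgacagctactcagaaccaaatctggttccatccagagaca

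Hspb1, chr5:135887669-135887968, plus strand: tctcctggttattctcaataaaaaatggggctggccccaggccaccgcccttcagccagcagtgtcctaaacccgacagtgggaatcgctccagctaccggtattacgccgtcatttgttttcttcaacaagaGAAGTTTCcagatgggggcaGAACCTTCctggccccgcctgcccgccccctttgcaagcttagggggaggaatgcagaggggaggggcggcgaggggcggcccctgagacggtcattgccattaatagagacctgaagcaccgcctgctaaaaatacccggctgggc

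The run in Hspe1 begins 89 bases before the start and that in Dnajb6 46 bases before it, and Hsph1 has a pair 54 bases before its start and a run after it. The differences of the 4 members with such a run ranged from -0.54 for Dnajb6 to 0.20 for Hsph1, with a median of -0.05. The 53 members with a window and no run had a median of -0.07. A match of these letters is a description of the window and shows no binding.

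Obstruction came with small differences in heat shock chaperone RNA in these arrays, and none passed the test. Of the 73 members, 0 were called by limma with Benjamini-Hochberg adjustment over all genes, where 0.0521% of all genes were called (0.026% higher and 0.026% lower). The lowest adjusted p among members was 0.497, for Dnajc6 and Dnajc19. At an unadjusted p below 0.05 there were 5 members, 1 higher and 4 lower, which is 6.85% against 8.14% of all genes (3.05% higher and 5.09% lower). The mean after obstruction was lower in 45 members and higher in 28, so 61.6% were lower, against 53.1% of all genes with a lower and 46.9% with a higher mean. The median log2 difference, obstructed minus sham, was -0.05 for the members and -0.02 for all genes.

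**Figure D1:**
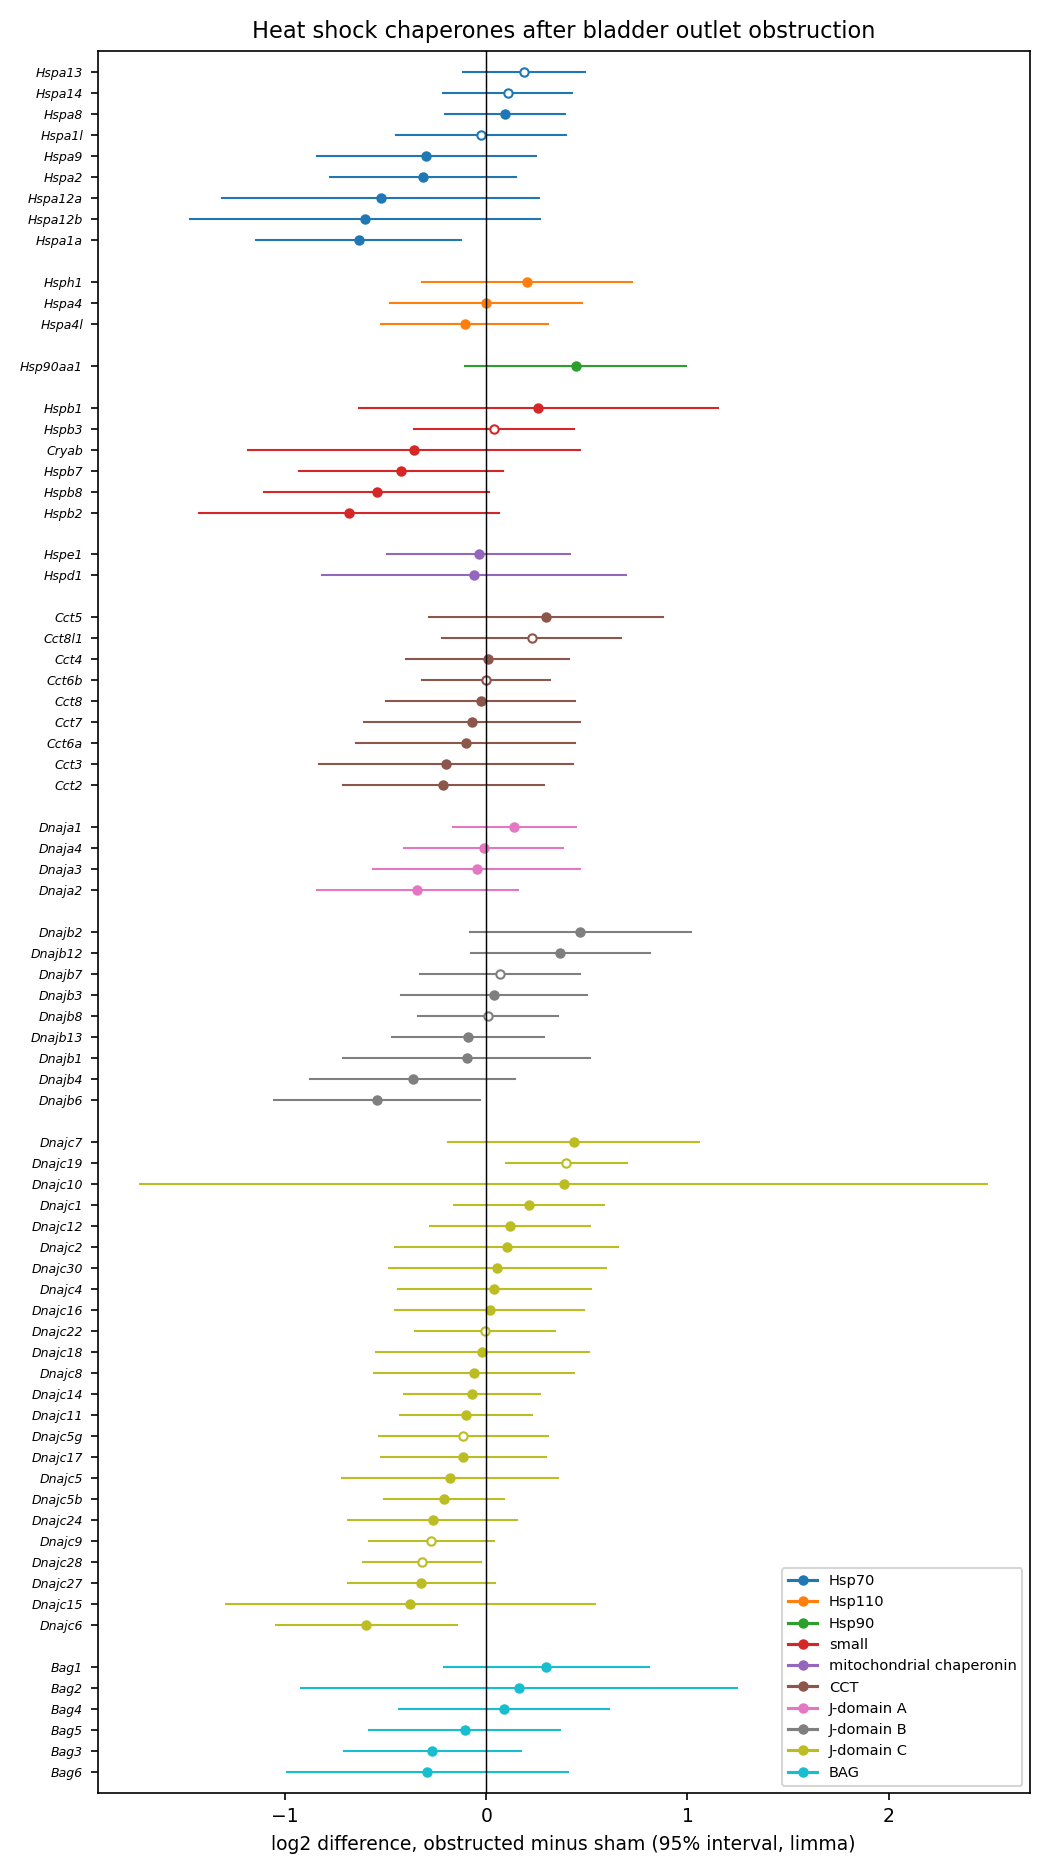
Log2 difference (obstructed minus sham, x axis) of each of the 73 heat shock chaperone genes, grouped by role, with the 95% interval of the limma fit on 2 sham and 2 obstructed arrays. Filled points have a mean above the median of all probes and open points do not. Points lie between -0.68 (Hspb2) and 0.47 (Dnajb2), and all but 5 intervals include 0.

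The groups did not overlap for 30 members, 41.1% against 39.2% of all genes. Of these, 21 lay lower after obstruction (28.8%, against 21.6% of all genes) and 9 higher (12.3%, against 17.6%). The share that did not overlap was thus near that of the array as a whole. A difference past 1.5-fold was seen in 4 members (Hspb2, Hspa1a, Hspa12b and Dnajc6), all of them lower, which is 5.48% against 6.35% of all genes. The interval of 59 members lay inside a 2-fold change in either direction, before any adjustment for the number of genes. Of the 73 members, 60 had a mean above the median of all probes, and of these 31.7% lay lower without overlap and 11.7% higher, against 23.1% and 18.1% of all such genes. No detection call was used, so whether the other 13 exceed background was not tested.

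Among the Hsp70 genes, Hspa8, the constitutive Hsc70 that folds new proteins and uncoats clathrin, measured 14.79 and 14.54 in sham and 14.82 and 14.69 in obstructed bladders (log2). The groups overlapped. The log2 difference was 0.09 (SE 0.12, 95% interval -0.21 to 0.39). Its 3 other probes differed by -0.04, 0.10 and 0.18, so the 4 probes did not share a sign.

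Hspa1a, the stress-inducible Hsp70, measured 6.30 and 6.86 in sham and 5.97 and 5.93 in obstructed bladders. Both obstructed arrays lay below both sham arrays. The difference was -0.63 (SE 0.21, interval -1.14 to -0.13), or 1.55-fold down (limma adjusted p = 0.524). Its signal was close to the median of all probes, and the difference was -0.35 without sham replicate 2 and -0.92 without sham replicate 1. Hspa1a and Hspa1b are near-identical copies, so this probe may read RNA of both, which was not tested.

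Hspa9, the Hsp70 of the mitochondrial matrix that drives protein import, measured 9.27 and 9.46 in sham and 8.91 and 9.22 in obstructed bladders. Hspa2, an Hsp70 best known from the testis, measured 11.37 and 11.54 in sham and 11.22 and 11.05 after obstruction. For both genes the obstructed arrays lay below the sham arrays. The differences were -0.30 (SE 0.22) and -0.31 (SE 0.19), with adjusted p of 0.772 and 0.723 by limma.

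Hspa12b, a distant Hsp70 relative known from endothelium, measured 8.70 and 8.43 in sham and 8.47 and 7.45 in obstructed bladders. Its relative Hspa12a measured 8.08 and 8.24 in sham and 8.09 and 7.17 after obstruction. In both genes obstructed replicate 1 lay between the sham arrays and replicate 2 lay below them. With obstructed replicate 2 alone set against sham, Hspa12b differed by -1.12 and Hspa12a by -0.99. With obstructed replicate 1 alone they differed by -0.09 and -0.06. In all 4 arrays together the differences were -0.60 (SE 0.36, limma adjusted p = 0.716) and -0.53 (SE 0.32). The other probe of Hspa12a lay below the median of all probes and differed by 0.03. Of 5 endothelial markers, 5 lay below the sham mean in obstructed replicate 2 and 1 in replicate 1, with medians of -0.32 and 0.23; their part in the result was not tested.

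The Hsp110 genes act as nucleotide exchange factors of Hsp70. Hsph1 measured 10.01 and 10.18 in sham and 10.43 and 10.16 in obstructed bladders. The groups overlapped, and the difference was 0.20 (SE 0.21). Hspa4 and Hspa4l differed by -0.0014 (SE 0.19) and -0.11 (SE 0.17), with an interval from -0.48 to 0.47 for Hspa4. Hsp90aa1, the inducible cytosolic Hsp90, measured 10.94 and 11.29 in sham and 11.39 and 11.73 after obstruction. Both obstructed arrays lay above both sham arrays. The difference was 0.44 (SE 0.22, interval -0.11 to 0.99), at a limma adjusted p of 0.684. A dimmer probe above the median of all probes differed by 0.10, and a further one below that median by -0.09.

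**Figure D2:**
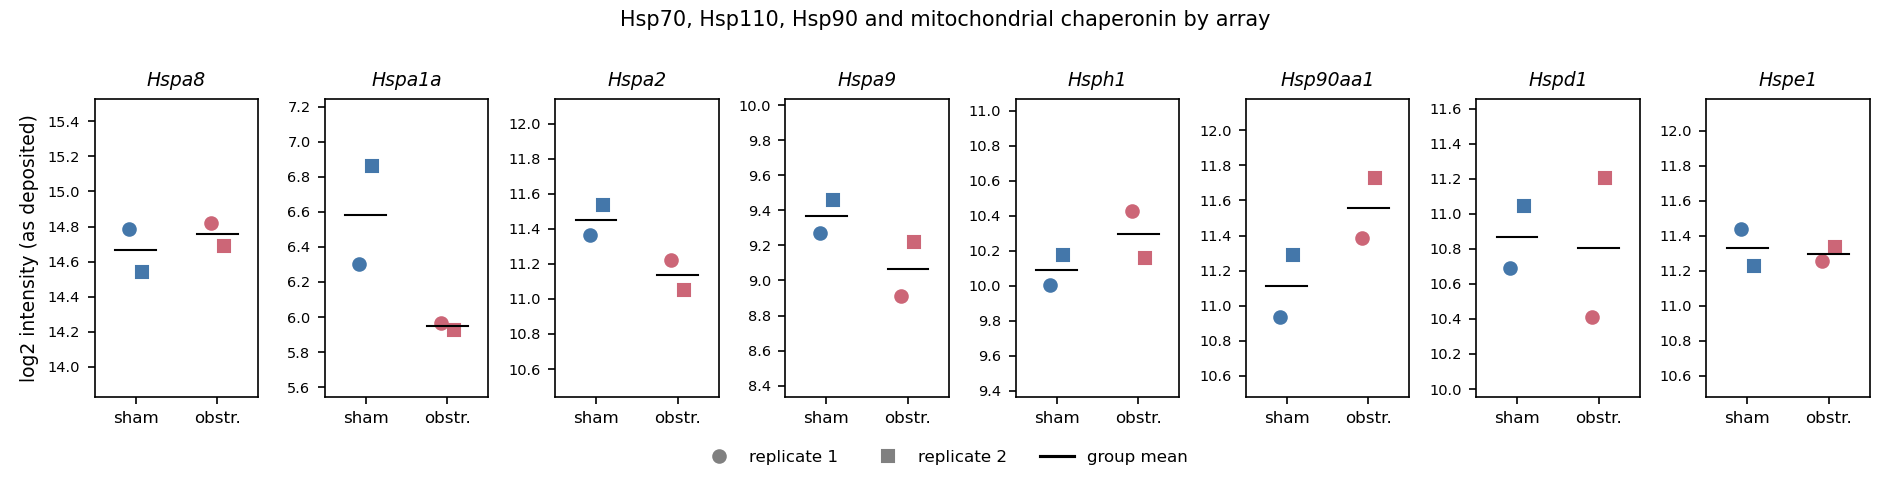
Log2 intensity as deposited (y axis, same span in each panel) of Hsp70, Hsp110, Hsp90 and mitochondrial chaperonin genes in the sham and obstructed arrays. Circles are replicate 1, squares replicate 2 and lines group means (n = 2). Hspa1a, Hspa2 and Hspa9 lie lower in both obstructed arrays, Hsp90aa1 lies higher, and the groups overlap for the other 4 genes.

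The mitochondrial chaperonin genes, which share the promoter region printed above, differed in their means by less than the spread between arrays. Hspd1, the barrel-forming Hsp60, measured 10.69 and 11.04 in sham and 10.41 and 11.20 in obstructed bladders. Hspe1, its lid Hsp10, measured 11.44 and 11.23 in sham and 11.26 and 11.33 after obstruction. The sham values of Hspd1 lay between the obstructed ones, and the reverse held for Hspe1. The differences were -0.06 (SE 0.31) and -0.04 (SE 0.19). A dimmer probe of Hspd1 differed by -0.62, from sham values of 6.93 and 7.51 to 6.48 and 6.72. The intervals were -0.82 to 0.70 for the main probe of Hspd1 and -0.49 to 0.42 for Hspe1.

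Of the 6 small heat shock genes, Hspb2, Hspb7 and Hspb8 lay below sham in both obstructed arrays, and none passed the test. Cryab, Hspb1 and Hspb3 lay above the sham mean in replicate 1 and below it in replicate 2. Hspb8, partner of Bag3 in strained muscle, measured 13.34 and 13.12 in sham and 12.99 and 12.38 in obstructed bladders. Hspb2, a small heat shock protein of heart and skeletal muscle, measured 8.002 and 7.68 in sham and 7.57 and 6.74 after obstruction. Hspb7, which stabilises actin filaments in heart muscle, measured 8.85 and 8.999 in sham and 8.61 and 8.39 after obstruction. For these 3 genes both obstructed arrays lay below both sham arrays.

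The log2 difference was -0.55 (SE 0.23, interval -1.11 to 0.02) for Hspb8, -0.68 (SE 0.31, interval -1.43 to 0.06) for Hspb2 and -0.42 (SE 0.21) for Hspb7. Their adjusted p by limma was 0.630, 0.642 and 0.677. Cryab, alpha B-crystallin, which binds desmin and actin in muscle, lies next to Hspb2 on chromosome 9. It measured 11.97 and 11.79 in sham and 12.02 and 11.02 in obstructed bladders. Only obstructed replicate 2 lay below the sham arrays, and the difference was -0.36 (SE 0.34, limma adjusted p = 0.832).

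Hspb1, the small heat shock protein Hsp25 that guards actin filaments, measured 13.10 and 13.04 in sham and 13.92 and 12.74 in obstructed bladders. Obstructed replicate 1 was the highest array and obstructed replicate 2 the lowest. The difference of the means was 0.26 (SE 0.37), and its sign rested on the array. With obstructed replicate 1 alone set against sham Hspb1 was 0.85 higher, and with obstructed replicate 2 alone it differed by -0.34. The remaining small member, Hspb3, lay about the median of all probes at 5.64 to 6.003 and differed by 0.04.

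With obstructed replicate 2 alone set against sham, limma called Hspb2 at -1.10 (adjusted p = 0.0038), Hspb8 at -0.85 (0.0045) and Cryab at -0.86 (0.0132). With obstructed replicate 1 alone these were -0.27, -0.24 and 0.14, with adjusted p of 0.685, 0.598 and 0.832. These fits assign the single obstructed array the spread of the sham pair. They called 8.45% and 2.1% of all genes, against 6 of the 73 members with replicate 2 (Hspa12a, Hspa12b and Dnajc10 beside the 3 named) and 2 with replicate 1 (Hspb1 and Dnajc10). Smooth muscle markers also differed most in replicate 2: 7 of 7 lay below the sham mean in obstructed replicate 2 and 5 of 7 in replicate 1, with medians of -1.07 and -0.14, against -0.69 and -0.05 for the 6 small heat shock genes. The log2 of the summed intensities of the smooth muscle markers was 16.46 and 16.73 in sham and 16.46 and 15.93 in obstructed bladders. Skeletal muscle markers (8 measured) had medians of -0.40 in replicate 1 and -0.66 in replicate 2, and the accessory gland markers 3.34 and 9.003. Lower medians in replicate 2 were not limited to muscle markers. Fibroblast, macrophage, mesothelial and lymphocyte markers had medians of -0.64, -1.02, -1.30 and -0.295 in replicate 2. In replicate 1 they stood at -0.03, 0.42, -0.24 and 0.28. Urothelial markers had medians of 0.07 in replicate 2 and -0.05 in replicate 1. The part of these markers in the small heat shock result was not tested.

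**Figure D3:**
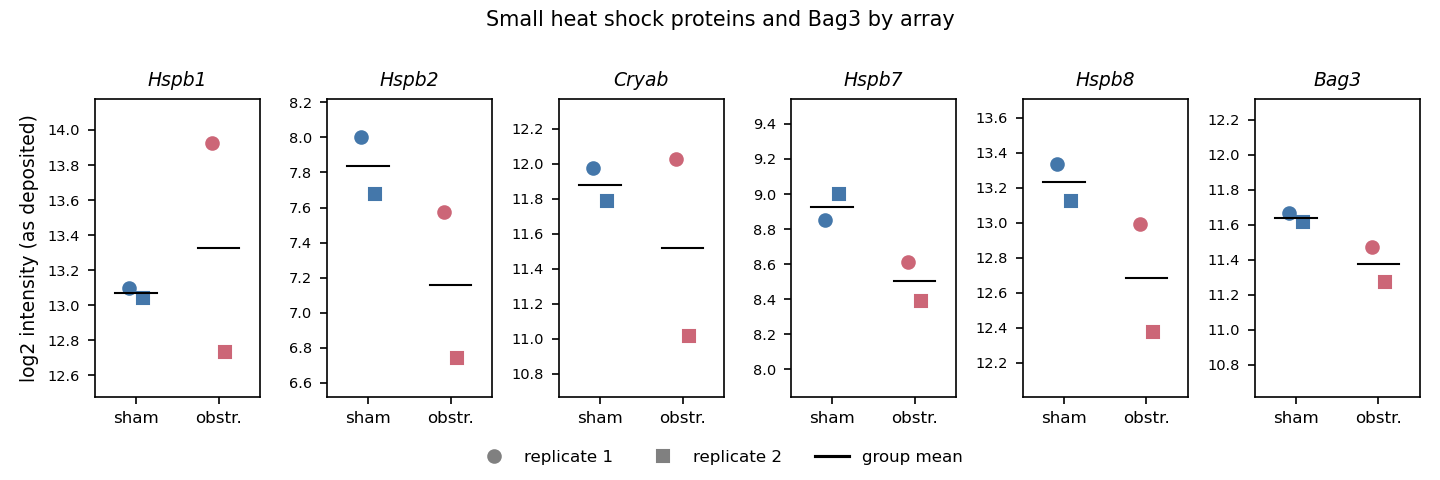
Log2 intensity as deposited (y axis, same span in each panel) of 5 small heat shock genes and Bag3 in the sham and obstructed arrays. Circles are replicate 1, squares replicate 2 and lines group means (n = 2). Hspb2, Hspb7, Hspb8 and Bag3 lie lower in both obstructed arrays, and Hspb1 and Cryab spread widely between them.

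**Figure D4:**
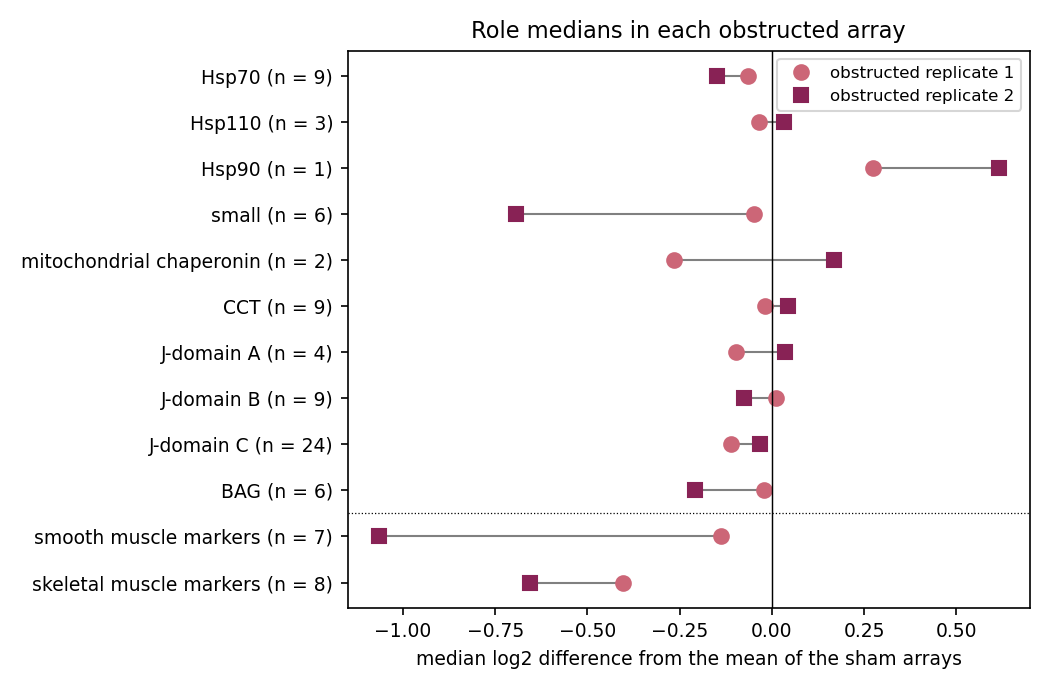
Median log2 difference from the mean of the sham arrays (x axis) over the members of each role, shown for obstructed replicate 1 (circles) and replicate 2 (squares), with smooth and skeletal muscle markers below the dotted line. The small heat shock genes lie at -0.05 in replicate 1 and -0.69 in replicate 2, and CCT at -0.02 and 0.04.

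BAG proteins release clients from Hsp70. Bag3, the strain-responsive member that pairs with Hspb8, measured 11.67 and 11.61 in sham and 11.47 and 11.27 in obstructed bladders. Both obstructed arrays lay below the sham arrays, and the difference was -0.27 (SE 0.18, limma adjusted p = 0.748). Bag1, which binds Hsp70 and Bcl2, measured 12.14 and 12.64 in sham and 12.60 and 12.77 after obstruction, a difference of 0.30 (SE 0.21) with overlapping groups. It was 0.0511 without sham replicate 1 and 0.55 without sham replicate 2. Bag6, which sorts hydrophobic proteins for insertion or degradation, differed by -0.29 (SE 0.29), while its dimmer probe differed by 0.07. Bag2, an inhibitor of the ubiquitin ligase Stub1, measured 9.39 and 9.17 in sham and 10.13 and 8.76 after obstruction, with the sham arrays lying between the obstructed ones.

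The CCT chaperonin, which folds actin and tubulin, had 9 measured members by symbol. Their differences ranged from -0.21 for Cct2 to 0.30 for Cct5, with a median of -0.03. Cct2 measured 9.41 and 9.37 in sham and 9.09 and 9.27 in obstructed bladders and was the 1 member whose groups did not overlap. Cct5 measured 11.51 and 11.01 in sham and 11.42 and 11.69 after obstruction, with overlapping groups, and its difference was 0.0449 without sham replicate 2 and 0.545 without sham replicate 1. Cct3 differed by -0.20 (SE 0.26), and was lower in obstructed replicate 2 only. Cct4 and Cct8 differed by 0.01 (SE 0.17) and -0.03 (SE 0.19), with intervals from -0.40 to 0.41 and -0.50 to 0.44. The limma adjusted p of these 5 subunits was 0.797 or higher.

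J-domain proteins hand clients to Hsp70 and start its ATP cycle. The A class, the general Hsp40 partners, had 4 members. Dnaja2 measured 9.69 and 9.66 in sham and 9.24 and 9.43 in obstructed bladders, a difference of -0.34 (SE 0.20, limma adjusted p = 0.720), and its other probe differed by -0.26. Both obstructed arrays lay below both sham arrays. Dnaja1 lay near the median of all probes and differed by 0.14, and Dnaja3, the mitochondrial member, by -0.05 (SE 0.21).

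The B class had 9 members, with differences from -0.54 to 0.47. Dnajb6, which keeps aggregation-prone proteins soluble and is mutated in a human muscular dystrophy, measured 8.63 and 8.89 in sham and 8.13 and 8.30 in obstructed bladders. Both obstructed arrays lay below both sham arrays. The difference was -0.54 (SE 0.21, interval -1.05 to -0.03), or 1.46-fold down (limma adjusted p = 0.595), and a dimmer probe differed by -0.33. Dnajb4, a further Hsp70 partner, measured 9.80 and 9.90 in sham and 9.37 and 9.59 after obstruction, a difference of -0.37 (SE 0.21) without overlap. Its other probes lay below the median of all probes and differed by -0.20 and 0.08.

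In the other direction, Dnajb2, which couples Hsp70 to the proteasome, measured 8.28 and 8.32 in sham and 8.56 and 8.97 in obstructed bladders. Dnajb12, of the endoplasmic reticulum membrane, measured 7.80 and 7.74 in sham and 8.20 and 8.07 after obstruction. For both genes the obstructed arrays lay above the sham arrays. The differences were 0.47 (SE 0.22) and 0.37 (SE 0.18), at limma adjusted p of 0.668 and 0.677, and dimmer probes of Dnajb12 differed by 0.10 and 0.04. Dnajb1, the heat-inducible Hsp40, measured 10.71 and 10.79 in sham and 10.36 and 10.94 after obstruction. The sham arrays lay between the obstructed ones, and the difference was -0.10 (SE 0.25).

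The C class, J-domain proteins with specialised tasks, had 24 members with a median of -0.07. Dnajc6, auxilin, which recruits Hsc70 to clathrin coats, measured 8.47 and 8.47 in sham and 7.83 and 7.91 in obstructed bladders. Both obstructed arrays lay below the sham arrays, which differed little from each other. The difference was -0.60 (SE 0.18, interval -1.05 to -0.15), or 1.51-fold down (limma adjusted p = 0.497). It ranged from -0.64 to -0.55 when each array was left out in turn. Both of its other probes lay below the median of all probes and differed by -0.16 and -0.49.

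Dnajc19, part of the motor that pulls proteins into mitochondria, measured 5.24 and 5.29 in sham and 5.59 and 5.73 in obstructed bladders. Its difference was 0.40 (SE 0.12, limma adjusted p = 0.497), but all 4 values lay below the median of all probes, and its other probe differed by -0.25. Dnajc28 lay below that median too and differed by -0.32 (SE 0.12). Dnajc7, which binds both Hsp70 and Hsp90, measured 9.72 and 9.97 in sham and 10.02 and 10.54 after obstruction, a difference of 0.43 (SE 0.26) without overlap. Dnajc27, a protein with a Rab-like domain, and Dnajc5b differed by -0.32 (SE 0.15) and -0.21 (SE 0.12), each without overlap and each near the median of all probes.

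Dnajc15, of the mitochondrial inner membrane, measured 8.97 and 8.20 in sham and 7.80 and 8.63 in obstructed bladders, with overlapping groups. Dnajc5, the cysteine string protein of synaptic vesicles, differed by -0.18 (SE 0.22) and its other probe by -0.02. Dnajc10, a disulfide reductase of the endoplasmic reticulum, measured 6.75 and 6.30 in sham and 5.45 and 8.37 in obstructed bladders. Obstructed replicate 2 was the highest array and replicate 1 the lowest. A dimmer probe, below the median of all probes, measured 5.29 and 5.24 in sham and 5.50 and 5.40 after obstruction. The difference of the means was 0.38 (SE 0.86) for the main probe. Against the sham arrays, that probe was 1.85 higher in obstructed replicate 2 alone and differed by -1.08 in replicate 1 alone. Accessory gland markers stood at medians of 9.003 and 3.34 above sham in these arrays, in that order, and their part was not tested. Hspa13, likewise of the endoplasmic reticulum, lay below the median of all probes and differed by 0.19.

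Other genes of the chaperone network were described by lists chosen alongside the members. Of 21 co-chaperones and Hsp90 partners, 0 were called by limma. Their mean was lower after obstruction in 17 (53.1% of all genes were lower), 8 lay lower without overlap (21.6% of all genes) and 0 higher, and the median difference was -0.19. Unc45b, which folds myosin in striated muscle, measured 7.52 and 7.40 in sham and 6.84 and 6.04 in obstructed bladders. The difference was -1.02 (SE 0.28, limma adjusted p = 0.440), with -0.61 in obstructed replicate 1 alone and -1.42 in replicate 2 alone. Of 8 skeletal muscle markers, 6 lay below the sham mean in obstructed replicate 1 and 7 in replicate 2. The log2 of their summed intensities was 14.18 and 14.52 in sham and 13.45 and 12.72 in obstructed bladders. Most of that sum was Acta1, at 13.98 and 14.37 in sham and 13.27 and 12.47 after obstruction. Tnnt3 differed by -2.36, Ckm by -1.43 and Acta1 by -1.30, and the others by -0.35 (Pvalb) to -0.06 (Mylpf). The 8 markers had a median of -0.28, and 0 of them had a higher mean. Their part in the Unc45b value was not tested. Ppp5c, a phosphatase bound to Hsp90, differed by -0.62, and Itgb1bp2, the muscle protein melusin, by -0.59, each without overlap. Fkbp5, a glucocorticoid-responsive Hsp90 partner, measured 7.99 and 7.90 in sham and 7.85 and 9.11 in obstructed bladders. Replicate 2 alone stood out, at 1.16 above sham.

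Of 13 genes of mitochondrial folding and proteolysis, 0 were called, with 7 means up, 6 down and a median of 0.00. Grpel2, an exchange factor of mitochondrial Hsp70, differed by 0.36 without overlap. Prefoldin and Tcp1, which feed and complete CCT, gave 0 calls among 7 genes and a median of -0.02, with Tcp1 at -0.17. Among 6 heat shock factors and regulators, 0 were called, Hsf2 differed by 0.05, the unfoldase Vcp by 0.42 and the deacetylase Sirt1 by -0.48, the last 2 without overlap. Among 8 genes of chaperone-assisted autophagy that work with Bag3, 0 were called and the median was 0.08. Their differences ranged from -0.41, for Sqstm1, to 0.39. The groups of Sqstm1 did not overlap, but it lay only 0.05 below the sham mean in obstructed replicate 1, with -0.77 in replicate 2.

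Chaperones of the endoplasmic reticulum had mostly higher means after obstruction. Of 11 measured, 10 had a higher mean (46.9% of all genes did) and 8 lay higher without overlap (17.6% of all genes). The median was 0.46, against -0.05 for the 73 members. The number called by limma was 0, and 5 had an unadjusted p below 0.05, against 8.14% of all genes. Hspa5, the Hsp70 of that compartment, measured 11.43 and 11.16 in sham and 11.57 and 12.27 in obstructed bladders, and P4hb, a disulfide isomerase, 12.11 and 12.14 against 12.73 and 13.09. They differed from the sham mean by 0.98 and 0.97 in obstructed replicate 2, and by 0.27 and 0.61 in replicate 1. Over the 11 genes, the median difference was 0.4166 in obstructed replicate 1 and 0.4168 in replicate 2. Accessory gland markers, 9 of 9 with a higher mean, stood at medians of 3.34 and 9.003 above sham in replicates 1 and 2, and their part in these values was not tested. Nor was the difference between the lists tested.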

How the data were processed

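The authors deposited 1 value per probe and array for 46657 probes, as log2 intensities already brought to a common distribution. Both points were read from the values, since neither labels nor headers give them: the sorted columns differ by at most 0.0252, as after quantile normalization. The background correction and scanner software are not stated here. The platform annotation named 1 gene for 22380 probes, several for 0 and none for 24277, and all 22380 gene numbers were found in RefSeq's table (GRCm38.p6). The brightest probe by mean of the 4 arrays was used for each of 15366 genes, and levels were not compared between probes.

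The contrast of obstructed with sham used lmFit and eBayes with a trend (limma 3.58.1, R 4.3.3), with no filter, two-sided, with Benjamini-Hochberg adjustment over all genes and a threshold of 0.05. Standard errors rest on 6.04 degrees of freedom, and the number of arrays limits precision. The fit was also run on simulated data with independent noise for each gene and no shift of a whole array. That run does not measure how many changes would be missed in the arrays used here. Python 3.11.15 made the tables and matplotlib 3.10.9 the figures. Named were 9 of 12 fixed genes that were measured and the 3 members of smallest p above the median of all probes in each role; 15 more members and 12 related genes were named after their values were seen. Members, lists and tests were chosen with earlier results of these data known. Alternatives were other normalizations, a filter, a floor of 50, the mean of all probes, other variance models, a block for the replicate number, leaving out each array and a threshold of 0.1.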

Additional observations from a re-analysis of the deposited data

How the results depend on the processing

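The count of 0 members called held under quantile normalization, median centring, the filter on dim genes, the mean of all probes, the floor of 50, eBayes without a trend and with a robust trend, the replicate block (0 called, with unadjusted p below 0.05 in 1 member up and 5 down, against 1 and 4 without it), and a threshold of 0.1. Leaving out each array in turn gave 0 to 6 members called, 29 to 32 with a higher mean, and a median of -0.0758 to -0.0548. Over all genes, 4 were called higher and 4 lower, against 2 and 1 with the filter, 0 and 0 with the floor (490 and 759 at an unadjusted p below 0.05), 2 and 4 without a trend, 6 and 11 with a robust trend and 0 and 1 with the block. The median was -0.0702 with the filter, -0.0269 with the mean of all probes and -0.0367 with the floor of 50, each moving by more than the spread of 0.0079 between arrays. The filter leaves fewer genes, and for the others the cause was not tested. Of all values of the 57 named genes under the alternatives, 639.0 kept their direction and side of the threshold, 13.0 passed it and 28.0 changed sign, with Dnajc10 without obstructed replicate 2 in both of the last counts. Hspa13 came to 0 with the floor of 50. Leaving out an array moved 45.0 of the 57 by over 1.5 times or turned their sign. Apart from the array left out, the 1 change of sign was that of Dnaja3 with the mean of all probes, at 9.204e-04.

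Over the fits that left out an array, differences ranged from -0.61 to 0.0219 for Bag6, -0.52 to 0.85 for Bag2, -0.50 to 0.10 for Cct3, -0.0274 to 0.0422 for Cct4, -0.13 to 0.0734 for Cct8, -0.86 to 0.14 for Cryab, -0.19 to 0.0906 for Dnaja3, -0.39 to 0.19 for Dnajb1, -1.08 to 1.85 for Dnajc10, -0.79 to 0.0367 for Dnajc15, -0.0447 to 0.0419 for Hspa4, -0.0325 to 0.22 for Hspa8, -0.34 to 0.85 for Hspb1, -0.14 to 0.22 for Hspb3, -0.46 to 0.33 for Hspd1, -0.14 to 0.0677 for Hspe1, -0.0915 to 1.16 for Fkbp5 and -0.0684 to 0.16 for Hsf2. Deviations of same-numbered arrays from their group means correlated at -0.02 over all genes. With 2 arrays in each group, this value cannot decide whether same-numbered arrays were paired.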
